A study of Mus musculus with 4 samples.

Results

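DNA methylation at the proneural and neurogenic bHLH genes Neurog1, Neurog2, Neurod1, Neurod2, Neurod6, Olig1, Olig2 and Bhlhe22 was examined in reduced representation bisulfite sequencing (RRBS) of mouse ESCs and neurons. These 8 of 21938 protein-coding genes were chosen by name, as transcription factors that start and carry through the formation of neurons and glia. For each gene, the CpG sites within 1 kb of the start, in the gene body and up to 2 kb beyond either end were taken (mm10, GENCODE M21), and this stretch is called the gene window. The windows hold 1892 of the 21867550 CpGs of chromosomes 1 to 19, X and Y, and 748 of them were listed in all 4 libraries, against 1545651 such sites in the whole series.

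The 4 libraries came from ESCs and neurons of the lines R1 and Tet/Tet, with 1 library of each kind of cell and line. R1 is a line of wild-type mouse ESCs. Tet/Tet is a single line made from R1 that carries tet-off constructs in Dnmt1, the gene of the maintenance DNA methyltransferase, and overexpresses DNMT1. It was cultured with puromycin and neomycin, which the labels do not give for R1. Neurons were obtained from each line through embryoid bodies for 2 days and then 10 to 15 days in NDiff227 medium according to the labels. The ESC libraries and the neuron libraries belonged to different sequencing projects, and the labels give phenol and chloroform extraction for ESCs and a column kit for neurons, so cell type, project and extraction cannot be told apart. Each R1 library shared its project with its Tet/Tet counterpart. Each condition had 1 library, so no replicate error could be given and no test was possible, and every difference given here describes these libraries. The tables give for each CpG the percent of its reads that kept a cytosine and no read numbers, so the depth behind each value is unknown.

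The tables listed 2311939 to 5298360 CpG sites per library, and the mean over the 1545651 sites shared by all 4 was 26.8% in ESCs of R1 and 28.1% in those of Tet/Tet, and 53.3% and 10.9% in the respective neurons. In this mean the R1 neuron library stood above both ESC libraries and the Tet/Tet neuron library below them. Every comparison that includes a neuron library carries such an offset. Mitochondrial CpGs read 3.19%, 7.37%, 15.9% and 6.27% in that order, and the part of incomplete bisulfite conversion in the differences was not tested. In the Tet/Tet neuron table no site was listed on chromosome 7 beyond position 55762981, on chromosomes 8 and 9, and on chromosome 10 before position 128096803. None of the 8 genes lies in these stretches. Cell identity could be looked at only through promoter methylation, since no RNA was measured. Of the neuron marker promoters, 3 of 5 were measured, and 2 of these 3 (Syp and Snap25) were at least 10 points higher in R1 neurons than in R1 ESCs and 2 of 3 lower in Tet/Tet than in R1 neurons. Of the pluripotency marker promoters, 4 of 6 were measured, of which 3 were higher in R1 neurons and 3 were lower in Tet/Tet than in R1 neurons. Over all promoters measured, 26.4% differed by that much in the first of these comparisons and 26.7% in the other, in either direction. The labelled cell types could therefore not be checked against their defining markers.

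The bHLH (basic helix-loop-helix) factors bind DNA as dimers, usually with an E protein partner, at short sequences called E-boxes. Proneural factors such as the neurogenins commit progenitors to the neuronal fate and switch on the NEUROD factors, which drive differentiation and maturation, while OLIG factors act in motor neuron and oligodendrocyte progenitors. In pluripotent cells such developmental regulators usually lie in CpG-rich stretches that are free of DNA methylation and are held silent by Polycomb instead.

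The sequence around the gene starts separates the 8 genes. In 7 of 8 the start lay inside a CpG island, here a stretch longer than 200 bp in which GC made up 50% or more and CpGs exceeded 0.6 of the number their bases predict, and Neurod6 had no island in its whole window. The 250 bases before the gene start are shown for Neurog1, as the member richest in CpGs there, and for Neurod6, as the poorest, both read 5′ to 3′ on the strand of the gene (mm10, minus strand, chr13:56252164-56252413 and chr6:55681264-55681513), with each CpG in capitals.
Neurog1: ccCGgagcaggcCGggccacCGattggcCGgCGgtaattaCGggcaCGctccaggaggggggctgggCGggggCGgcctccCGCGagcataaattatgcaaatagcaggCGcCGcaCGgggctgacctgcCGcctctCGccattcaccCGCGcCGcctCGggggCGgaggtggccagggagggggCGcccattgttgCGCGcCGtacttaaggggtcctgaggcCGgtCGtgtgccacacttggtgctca
Neurod6: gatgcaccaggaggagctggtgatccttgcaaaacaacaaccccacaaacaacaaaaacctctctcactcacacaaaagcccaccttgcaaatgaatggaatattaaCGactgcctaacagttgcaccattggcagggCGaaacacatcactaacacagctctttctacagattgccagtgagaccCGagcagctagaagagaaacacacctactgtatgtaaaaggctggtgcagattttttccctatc
The Neurog1 stretch holds 27 CpGs, of which 12 were listed in all 4 libraries, with a mean of 0.745% (R1) and 1.77% (Tet/Tet) in ESCs and of 3.48% and 0.866% in neurons. The Neurod6 stretch holds 3 CpGs and no CCGG, the site at which the enzyme MspI cuts the DNA for RRBS, and none of its CpGs was listed in all 4 libraries. RefSeq promoters of GRCm38.p6 (250 bases before to 50 after the start) were at hand for 6 of the 8 genes. CCGG, which reads the same on both strands, occurred in 5 of these 6, the exception being Neurod6, and in 52.8% of 32851 RefSeq promoters.

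In ESCs the members with islands were nearly unmethylated in both lines. Over the sites listed in all 4 libraries, the gene windows averaged between 2.01% (Bhlhe22) and 4.49% (Neurog1) in R1 and between 2.20% (Bhlhe22) and 5.07% (Neurod2) in Tet/Tet, where the median over 12210 genes with at least 20 such sites was 14.8% and 15.5%. Neurod6 was the exception, with 22.6% in R1 and 23.7% in Tet/Tet over 17 sites, which is fewer than the 20 sites asked of a gene window, so it was not counted. Tet/Tet ESCs differed from R1 ESCs by less than 2 points in each of the 7 counted members, with a range of -0.945 (Neurog1) to 1.56 points (Neurog2). A difference of 10 points or more was reached by 0 of these 7, and over all genes 1.72% were higher and 0.344% lower by that much, so the count of members was near the background. At promoters, taken as 1 kb to either side of the start with at least 5 sites, again 0 of 7 members differed by 10 points, where 3.66% of 11466 genes did so in either direction.

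**Figure D1:**
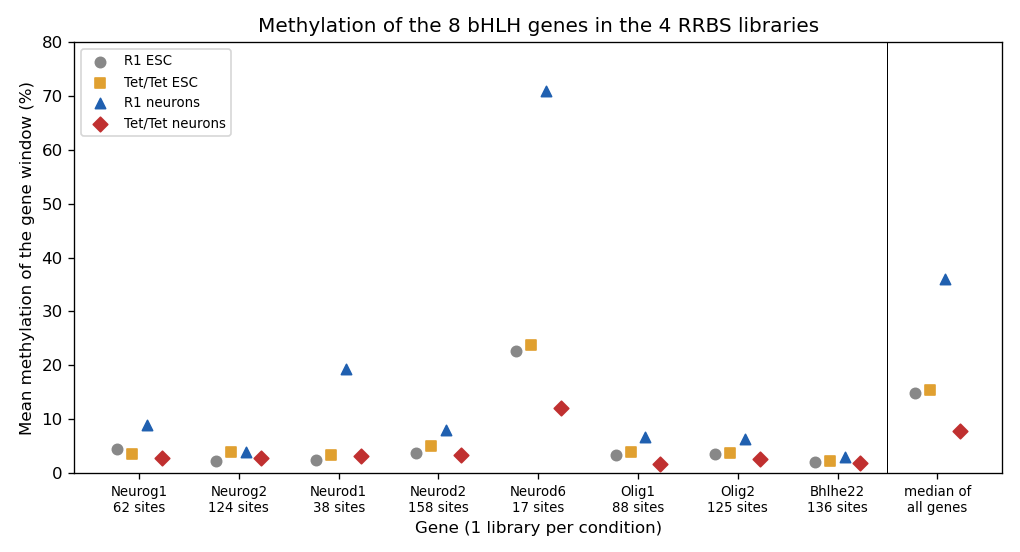
Mean methylation (%) of the gene window of each of the 8 genes over shared CpG sites, 1 point per library, with the median over 12210 genes at the right. R1 neurons are the highest library for every gene, and only Neurod1 (19.2%) and Neurod6 (70.97%, 17 sites) lie above 10% in that library.

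The differences between the ESC lines were small, and single sites weighed on some of them. In Neurog1, the 62 sites gave 4.49% in R1 and 3.54% in Tet/Tet, and without the site of the largest difference, at chr13 position 56254162 in the upstream flank (100% in R1, 0% in Tet/Tet), the difference was 0.679 points instead of -0.945. In Neurog2, a proneural factor of cortical and spinal progenitors, the mean of 124 sites was 2.25% in R1 and 3.82% in Tet/Tet, and Tet/Tet was the higher line at 67 of these sites and the lower one at 31. Without the Neurog2 site of the largest difference, which was 100 points, 0.764 of the 1.56 points remained. Of the 748 sites of the 8 genes, 309 were higher and 294 lower in the Tet/Tet ESCs, and 145 were equal. Only 25 sites were higher and 18 lower by 10 points or more.

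In neurons the gene windows differed in 1 direction. All 7 counted members were lower in Tet/Tet than in R1, with differences from -1.09 points in Bhlhe22 to -16.0 points in Neurod1 and a median of -4.65 points, against -28.2 points over all genes. Only Neurod1 passed 10 points (1 of 7 members), whereas 81.6% of 12210 genes were lower by at least 10 points and 0% higher. Among the 8778 genes that start in a CpG island, 77% differed by that much in either direction, against 0.934% in the ESC comparison. At promoters 0 of 7 members and 26.7% of genes passed, and 6 of 7 members were lower in Tet/Tet. The exception was Bhlhe22, which was 0.500 points higher there although 45 of its 69 promoter sites were lower. That value includes the site at chr3 position 18054719, at 0% in R1 and 100% in Tet/Tet neurons, which weighed on it. Of the members' 748 sites, 478 were lower, 151 higher and 119 equal in Tet/Tet neurons, and the 96 sites lower by at least 10 points made up 12.8% of them. The direction was that of most genes, and the median difference was smaller in size.

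The members' windows were also richer in island sites than most. Islands held 701 of the members' 748 sites, and the median share in a gene window was 95.6% for the 7 members (range 90.3% to 99.2%) against 64.4% for all genes (interquartile range 39.8% to 82.4%). Within islands alone, the median difference between the neuron lines was -2.61 points in the members and -2.18 points over 9669 genes with at least 20 island sites, and 6 of 7 members were lower in Tet/Tet while Bhlhe22 was 0.116 points higher. On these sites 1 of 7 members passed 10 points, again Neurod1, where 24% of genes did, and 1 of 7 cannot be told apart from that background. The Bhlhe22 value on island sites also includes its site at position 18054719, at 0% in R1 and 100% in Tet/Tet neurons. The sites outside islands looked different.

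**Figure D2:**
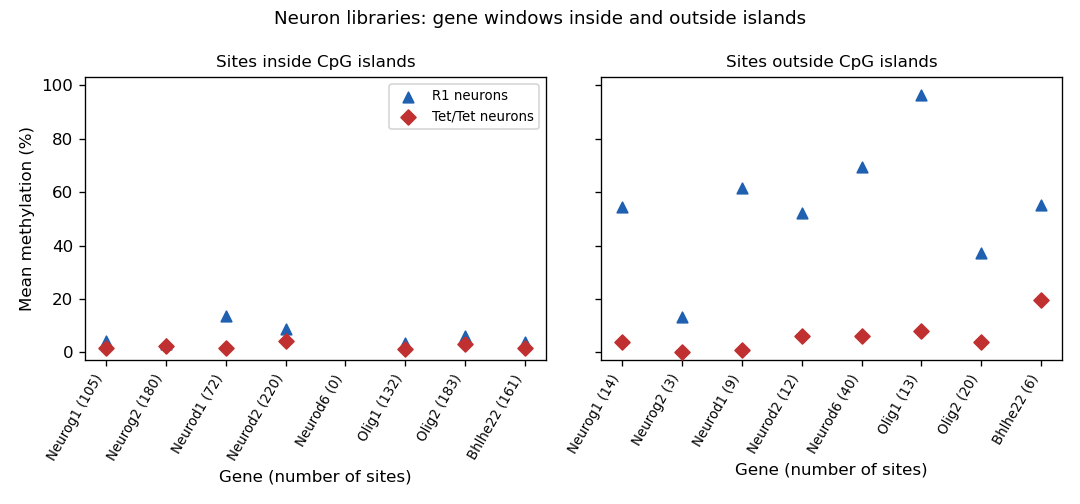
Mean methylation (%) of each gene window in the 2 neuron libraries, over sites listed in both, inside CpG islands (left) and outside them (right), with the number of sites behind each gene name. Inside islands both libraries lie below 14% for every gene, and outside islands R1 neurons lie between 13.3% (Neurog2, 3 sites) and 96.2% (Olig1, 13 sites) and Tet/Tet neurons between 0% and 19.6%.

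Outside islands, over sites listed in both neuron libraries, the mean of R1 neurons was above that of Tet/Tet neurons in each of the 8 windows. The whole series had the same direction. Its 832340 sites outside islands listed in all 4 libraries averaged 84.4% in R1 and 15.99% in Tet/Tet neurons. The 47 such sites of the 8 genes averaged 55.1% and 7.69%. Olig1, which acts in oligodendrocyte progenitors, had 96.2% in R1 and 8.12% in Tet/Tet over 13 sites listed in both neuron libraries. Its 132 island sites had 3.50% and 1.10%. Of the 13 sites of Olig1, the one at chr16 position 91272888 was at 100% in both neuron libraries. The others were at 5.56% or less in Tet/Tet neurons. The 3 upstream sites of Olig1 that were listed in all 4 libraries averaged 56.2% and 49.5% in the R1 and Tet/Tet ESCs and 91.96% and 1.85% in the neurons. This upstream stretch was thus methylated in ESCs too and low only in the Tet/Tet neuron library. In Neurog1, the proneural factor of cranial sensory neurons, 14 sites outside the island had 54.4% in R1 and 3.81% in Tet/Tet. Neurod2, a factor of maturing cortical neurons, had 52.1% and 6.30% over 12 sites. Olig2, which specifies motor neuron and oligodendrocyte progenitors, had 37.0% and 3.89% over 20 sites. In Bhlhe22, a bHLH repressor of cortical and retinal neurons, 6 sites had 55.1% and 19.6%, and the Tet/Tet mean includes 1 site at 100%, which was at 0% in R1 neurons, while the other 5 were at 13.8% or less. Neurog2 had 3 such sites, with 13.3% and 0%, of which 1 was at 40% and 2 at 0% in R1 neurons, and its window was the most island-rich of the members.

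Neurod1 was the member whose island sites as a whole differed by 10 points or more between the neuron lines, although single islands of Neurod2 and Olig2 were also methylated in R1 neurons. NEUROD1 is switched on by neurogenins and drives the differentiation of neurons, and also of endocrine cells of the pancreas. Its gene (ENSMUSG00000034701.9, chr2:79452521-79456751, minus strand) has an island of 638 bp at the start and another of 1080 bp (chr2:79453874-79454953) that covers most of the coding exon, and the window also holds part of Cerkl and Gm26755. The gene window of 38 sites averaged 2.33% in ESCs and 19.2% in neurons of R1, and 3.26% in ESCs and 3.21% in neurons of Tet/Tet. The R1 neuron library alone was high, with 33 of 38 sites above R1 ESCs and 30 of 38 above Tet/Tet neurons. The coding-exon island averaged 20.9% over 20 sites in R1 neurons and at most 2.38% elsewhere, and the island at the start averaged 8.65% over 16 sites in R1 neurons and at most 4.31% elsewhere. In comparison, the island at the start of Neurod2 averaged 20.5% in R1 and 2.77% in Tet/Tet neurons over 10 sites, and an island upstream of Olig2 21.5% and 4.08% over 4 sites. An island in the 3′ UTR of Neurod2 had 1 site listed in all 4 libraries, and the 11 sites listed in both neuron libraries averaged 51.5% in R1 and 4.55% in Tet/Tet.

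Among the MspI fragments of Neurod1 with at least 3 shared sites, the one with the largest difference between the neuron lines lies at the 3′ end of this island, and its coding part (chr2:79453967-79454076, mm10, read on the minus strand, CpGs in capitals) is shown for the gain it carries in R1 neurons.
Neurod1 coding exon: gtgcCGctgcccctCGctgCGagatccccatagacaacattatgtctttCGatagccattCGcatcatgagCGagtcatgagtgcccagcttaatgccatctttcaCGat
The 5 of its 7 CpGs that were listed in all 4 libraries averaged 24.8% in R1 neurons (20% to 29.03%) against 0.548% in R1 ESCs, and 1.21% in ESCs and 0.842% in neurons of Tet/Tet. No site of these 5 was above 2.33% in the other 3 libraries. The fragment was chosen for its difference between the neuron lines, so this separation adds nothing to that difference. The other 2 CpGs were listed only in neurons. The one at position 79454004 was at 0% in both lines, and the one at 79454015 at 25% in R1 and 0% in Tet/Tet. Methylation in R1 neurons was uneven along the island. It was 59.6% at position 79453939 and 46.4% at 79453957, both in the 3′ UTR and listed at 4.96% or less in the other 3 libraries. These 2 included, it averaged 26.3% over the 11 sites listed in all 4 libraries between 2600 and 2900 bp from the gene start. The next 2 sites toward the start that were listed in all 4 libraries, at positions 79454344 and 79454351, were at 50% and 5%. Between lay sites without a value in every library, from position 79454164 to 79454323. They were at 0% in R1 neurons except 79454213, which was at 33.3%. The 5 sites between 2300 and 2400 bp averaged 11.04%, and the last 2 sites listed in all 4 libraries 9.21%. Beyond these, the sites at positions 79454485 and 79454525 were at 0% in both neuron libraries. Upstream of the start, the 4 flank sites listed in both neuron libraries averaged 91.4% in R1 and 2.13% in Tet/Tet neurons. Of these, only the site at position 79458710 was listed in all 4 libraries, at 85.7% in R1 and 8.51% in Tet/Tet neurons.

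**Figure D3:**
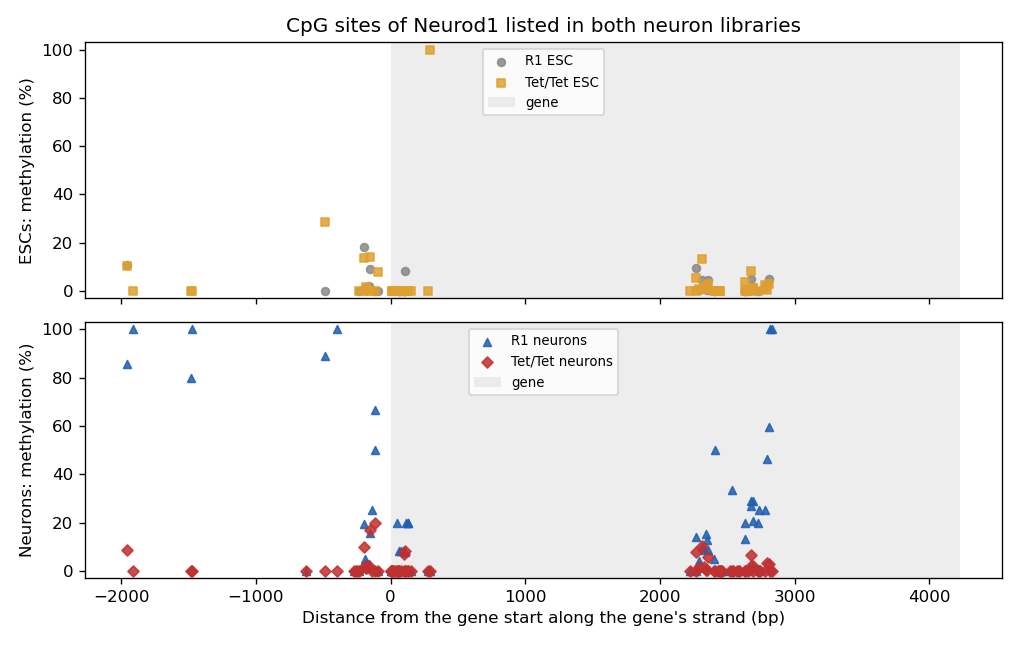
Methylation (%) of single CpG sites of Neurod1 against the distance from the gene start in bp, for sites listed in both neuron libraries, with ESCs above, neurons below and the gene shaded. R1 neurons are high in the upstream flank and toward the 3′ end of the coding-exon island, where values reach 59.6% among the sites listed in all 4 libraries, and Tet/Tet neurons stay at or below 20% throughout.

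Neurod6, which marks maturing excitatory neurons of the cortex, was the member with no island and the highest methylation. Its gene (ENSMUSG00000037984.9, chr6:55677822-55681263, minus strand) had 17 sites listed in all 4 libraries, of which 4 lay in the coding exon and 13 in the downstream flank, outside any annotated gene. Most of them fell in 2 MspI fragments, which held 3 and 10 of these sites and are shown because they behaved differently in ESCs (mm10, minus strand, chr6:55679183-55679333 and chr6:55676890-55677062, CpGs in capitals).
Neurod6 coding exon: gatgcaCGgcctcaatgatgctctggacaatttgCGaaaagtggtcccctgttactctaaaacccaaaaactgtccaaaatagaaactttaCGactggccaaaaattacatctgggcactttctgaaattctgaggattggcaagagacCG
Neurod6 downstream flank: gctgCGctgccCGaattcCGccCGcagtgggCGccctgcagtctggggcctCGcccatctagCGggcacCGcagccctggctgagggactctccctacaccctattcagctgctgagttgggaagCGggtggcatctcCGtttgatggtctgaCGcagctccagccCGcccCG
The coding fragment, with 3 of its 4 CpGs listed in all 4 libraries, averaged 63.3% in R1 ESCs (57.4% to 71.1%) and 61.3% in Tet/Tet ESCs (44.3% to 84.5%). In neurons it averaged 97.6% in R1 (96.4% to 98.7%) and 15.1% in Tet/Tet (12.5% to 17.3%). The ESC lines overlapped, R1 neurons were above every other library and Tet/Tet neurons below. The downstream fragment, with 10 of its 13 CpGs, averaged 3.86% in R1 ESCs (0% to 10%) and 6.06% in Tet/Tet ESCs (0% to 15.04%). In neurons it averaged 55.7% in R1 (26.03% to 85.7%) and 8.14% in Tet/Tet (3.33% to 17.3%). Here only R1 neurons stood above the other 3 libraries, which overlapped. The rest of the flank was not low in ESCs throughout, since 2 sites farther downstream were at 36.0% and 47.5% in ESCs of R1, at 42.5% and 54.4% in those of Tet/Tet, and in neurons at 89.5% and 90.4% (R1) and 13.8% and 16.7% (Tet/Tet). All 17 sites of Neurod6 were lower in Tet/Tet than in R1 neurons, with differences from -21.03 to -86.2 points. All 17 were higher in R1 neurons than in R1 ESCs, by 25.3 to 79.3 points. Nothing was learned about the promoter of Neurod6, which had no site in 3 of the 4 libraries.

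**Figure D4:**
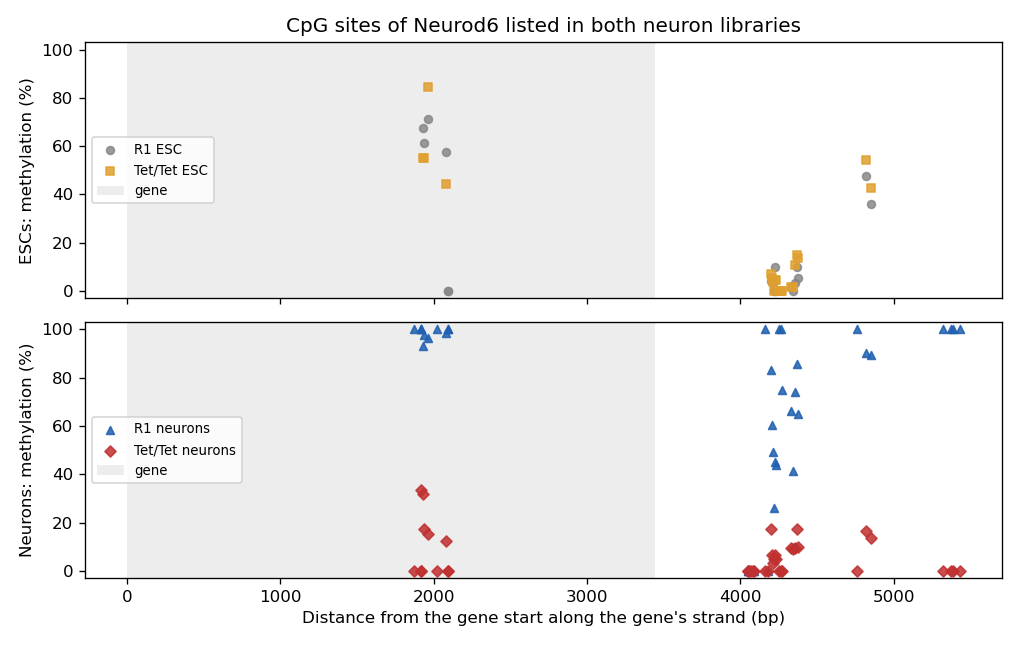
Methylation (%) of single CpG sites of Neurod6 against the distance from the gene start in bp, for sites listed in both neuron libraries, with ESCs above, neurons below and the gene shaded. In the coding exon R1 neurons lie at 93.0% or higher and Tet/Tet neurons at 33.3% or lower, and the downstream fragment is low in all libraries but R1 neurons.

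Neurod2 differed between the neuron lines at the gene start itself. Its gene (ENSMUSG00000038255.6, chr11:98325415-98329648, minus strand) has an island of 516 bp there, and the MspI fragment across the start averaged 20.6% in R1 neurons and 1.66% in those of Tet/Tet over 9 sites, with 5.69% and 5.03% in the respective ESCs. The part of that fragment before the gene start (chr11:98329649-98329735, mm10, minus strand, CpGs in capitals) is shown because it was the only fragment across a gene start, among those with at least 3 sites, that differed by 10 points between the neuron lines.
Neurod2 before the gene start: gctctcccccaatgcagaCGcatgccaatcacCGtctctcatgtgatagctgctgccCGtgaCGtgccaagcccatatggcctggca
Of its 4 CpGs, the 2 listed in all 4 libraries were both at 15.6% in R1 and at 0% in Tet/Tet neurons, with 3.54% and 1.63% on average in R1 and Tet/Tet ESCs. The other 2, nearer to the start and not listed for R1 ESCs, were at 0% in both neuron libraries. Over the whole promoter the difference was -7.59 points, and the large island over the coding exon and intron of Neurod2 was low in all 4 libraries, between 2.73% and 5.28% over 138 sites. Its 186 sites listed in both neuron libraries averaged 4.62% in R1 and 4.43% in Tet/Tet. Most such sites between positions 98328008 and 98328127 were higher in Tet/Tet neurons, though 98328046 was at 50% in R1 and 25% in Tet/Tet.

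The comparison of neurons with ESCs was made within each line. In R1, all 7 counted members were higher in neurons, by 0.935 points in Bhlhe22 to 16.9 points in Neurod1, and 1 of 7 passed 10 points, where 73.7% of all genes were higher and 0.00819% lower by that much. Among genes that start in an island 67.5% passed in either direction, and on island sites alone 21.8% of genes did, against 1 of 7 members. On promoter and on island sites 6 of 7 members were higher in neurons, and Bhlhe22 was lower, with differences of -0.663 and -0.275 points. Both Bhlhe22 values include the site at chr3 position 18054719, at 100% in R1 ESCs and 0% in R1 neurons, which weighed on them. At promoters Neurod1 passed (13.4% in R1 neurons, 2.42% in R1 ESCs, 17 sites), which is 1 of 7 members against 26.4% of genes. That call rested on 1 site outside the island, since the 16 island sites alone differed by less than 10 points. In Tet/Tet, all 7 members were lower in neurons than in ESCs, with differences from -0.0478 points in Neurod1 to -2.37 points in Olig1, and 0 of 7 passed, where 0.0737% of genes were higher and 41.4% lower. Genes that start in an island passed in 34.5% and promoters in 7.95% of cases in either direction, with 0 of 7 members at promoters too, where 5 of 7 were lower in neurons. On island sites alone 6 of 7 members were lower in neurons, and Neurod1 was 0.792 points higher. By single sites, Neurod1 had 15 of 38 higher and 12 lower in Tet/Tet neurons, and Neurog1 22 of 62 higher and 21 lower. The 2 lines share no library in these comparisons, but each shares libraries with the comparisons between lines.

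In Tet/Tet neurons the members were close together, from 1.59% (Olig1) to 3.35% (Neurod2) for the 7 windows with at least 20 sites, with 12.1% in Neurod6. In the order of the levels in R1 neurons, Bhlhe22 (2.95%), Neurog2 (3.90%), Olig2 (6.36%), Olig1 (6.61%), Neurod2 (7.99%) and Neurog1 (8.97%) came first, and Neurod1 (19.2%) and Neurod6 (70.97%) followed. The standard deviation over the sites of a window in R1 neurons was between 7.84 points (Neurog2) and 23.3 points (Neurod6), and with 1 library each, neighbours in this order cannot be said to differ.

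The level within islands depended on where a CpG stood. In the members' islands, the 133 CpGs inside CCGG averaged 7.39% (R1) and 11.1% (Tet/Tet) in ESCs and 11.3% and 8.58% in neurons, and the 568 other CpGs 1.27% and 1.23% in ESCs and 3.38% and 1.03% in neurons. The CpGs of the cutting site were thus higher in every library, and island CpGs in the promoters of all genes showed the same order. Without the CCGG sites, Neurod1 differed by -11.8 points between the neuron lines and by 12.0 points between R1 neurons and R1 ESCs. The ESC comparison turned sign in Neurod2 (-0.600 points) and Olig2 (-0.338 points).

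Other bHLH genes and the Notch genes, which restrain proneural genes in neighbouring cells, were counted from lists. Of 16 other bHLH genes listed as neurogenic 9 were measured, 5 lay in stretches without Tet/Tet neuron sites and 2 had too few sites. In neurons 6 of these 9 were lower in Tet/Tet by at least 10 points and 0 higher, with a median of -18.6 points, against 81.6% of all genes and a median of -28.2 points, and the counts of the lists that follow are to be read against the same share. Bhlha15, a factor of secretory cells although listed here as neurogenic, had 88.6% in R1 and 14.9% in Tet/Tet neurons. Nhlh1, a factor of early neurons, had 75.7% and 13.1%. Nhlh1 was also 65.6 points higher in R1 neurons than in R1 ESCs. Of 12 bHLH repressors (HES, HEY and ID genes) 10 were measured, and 3 of 10 were lower in Tet/Tet neurons (Hes3, Heyl and Id1, named after their values were seen), with a median of -3.96 points. Of 15 lineage bHLH genes outside the nervous system 8 were measured and 6 of 8 were lower, with a median of -26.5 points, among them the muscle gene Myog with 87.3% in R1 and 15.0% in Tet/Tet neurons. All 8 Notch genes were lower in Tet/Tet neurons, with differences of -44.3 points in Notch2, -36.9 points in Notch1 and -36.9 points in Notch3. Both E protein genes listed lay in the stretches without values. In ESCs no gene of these lists passed 10 points, and the largest differences were -9.03 points in Myog and 5.21 points in Notch2. Between Tet/Tet neurons and Tet/Tet ESCs, Bhlha15 (-26.1 points), Twist2 (-14.0 points), Myog (-13.0 points) and Notch2 (-23.6 points) passed. These were the only ones among the 27 bHLH and 8 Notch genes measured, whereas 41.4% of all genes were lower by at least 10 points. The genes whose 4 levels were most like the members' median, by the mean absolute difference over the 4 libraries among 27 measured bHLH genes, were Id3 (0.422 points), Id2 (0.592 points) and Id4 (0.670 points), which encode inhibitors of bHLH dimers.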

How the data were processed

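RRBS libraries of R1 and Tet/Tet ESCs and neurons were used, with 1 library per condition. According to the submitters' processing notes, the authors used Trim Galore 0.6.4, FastQC 0.11.8, Bismark 0.19.0 and MethylDackel 0.3.0 with mm10. The deposited tables hold for each CpG the percent of its reads that kept a cytosine, without read numbers and without normalization between libraries, and the read minimum behind a listed site is not given in the sources used here. Every listed site on chromosomes 1 to 19, X and Y was a CpG of mm10.

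Unless another set is named, levels are unweighted means over the CpGs that all 4 tables list. A gene window needed 20 sites and a promoter 5, and a difference of 10 points, the size the study's methods ask for, was counted. Fisher's exact test needs reads and was not possible, so there are no p-values. For the size range of RRBS, MspI fragments between 40 and 220 bp were taken. The calculation was tested on simulated data. Python 3.11.15, numpy 2.4.6, pandas 2.3.3, numba 0.67.0 and matplotlib 3.10.9 were used. Genes are those of GENCODE M21, and RefSeq promoters those of GRCm38.p6.

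The 8 genes and the gene lists were chosen with earlier results of these data known. All 8 are always named. Of the other bHLH genes and of the Notch genes, the 3 with the largest difference in each comparison were eligible, and the 3 bHLH genes closest to the members' median levels. The alternatives concerned the sites used, the number of sites, the size of a difference and the promoter width.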

Additional observations from a re-analysis of the deposited data

Results flagged for a closer look

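In 7 of the 8 genes the difference between Tet/Tet and R1 over the gene window was positive in ESCs and negative in neurons, each from 1 library per condition. Over 12210 genes the median difference had the same signs, with 0.599 points in ESCs and -28.2 points in neurons. The share of all genes with this pair of signs was not counted. The difference in neurons less that in ESCs was -2.72 points in Neurog2, -17.0 in Neurod1, -6.02 in Neurod2, -60.0 in Neurod6 (17 sites), -5.68 in Olig1, -3.87 in Olig2 and -1.28 in Bhlhe22. These differences between cell types were not tested, since no condition was replicated. In ESCs the differences were between 0.189 points (Bhlhe22) and 1.56 points (Neurog2), and in Neurod2 and Olig2 they took the other sign without the CpGs inside CCGG. In Bhlhe22 both signs turned on the 133 island sites alone. These averaged 1.93% in R1 and 1.90% in Tet/Tet ESCs, and the difference in neurons was 0.116 points. They include the site at chr3 position 18054719, at 100% in R1 and 50% in Tet/Tet ESCs and at 0% and 100% in the respective neurons. This site pulled both differences toward the turned sign. In neurons the direction was that of most genes, of which 81.6% were lower in Tet/Tet by at least 10 points.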

How the results depend on the processing

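No paired analysis was possible because each condition had 1 library. Of the counts of members past 10 points, 58 stayed the same and 26 moved, and none of the differences past 10 points changed sign. Between the neuron lines the count of 1 member (Neurod1) became 3 with the sites listed in both libraries or with each library's own sites (Neurod1, Neurod6 and Olig1), 3 at 5 points, 4 with means of 100 bp steps (Neurog1, Neurod1, Olig1 and Bhlhe22), 2 with at least 10 sites (Neurod1 and Neurod6, a choice made after seeing the data), and 0 at 25 points or within MspI fragments, where Neurod1 kept 19 sites, under the minimum of 20, at 21.2% in R1 and 3.28% in Tet/Tet neurons. At promoters the count of 0 became 1 with sites of both libraries, own sites, 100 bp steps or 500 bp to either side, and 2 at 5 points. Between R1 neurons and R1 ESCs the count of 1 in gene windows became 2 with sites of both libraries or at least 10 sites, 3 with own sites, and 0 at 25 points or within fragments. At promoters 1 became 2 at 5 points or 500 bp, and 0 at 25 points, with medians, within fragments, without the site of largest difference, or without CpGs in CCGG (added after seeing the data). Between Tet/Tet neurons and ESCs 0 became 1 (Neurod6) with own sites or at least 10 sites. Where no number of sites is named, the cause was not tested. No member kept 20 sites outside islands, so that alternative gave no value. Of 55 differences of single members under the alternatives, 8 took the other sign in the ESC comparison (Neurog1, Neurod2, Olig2) and 8 between Tet/Tet neurons and ESCs (Neurog1, Neurod1, Neurod2, Olig2), and 0 in each of the other 2, where Bhlhe22 did so on its island sites alone (0.116 points between the neuron lines, -0.275 points between R1 neurons and R1 ESCs). In the ESC comparison Bhlhe22 also took the other sign on its island sites alone (1.93% in R1, 1.90% in Tet/Tet). Its site at chr3 position 18054719 weighed on all these island values. The unknown depth limits each single-site value.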

Other observations

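In island CpGs of the promoters of all protein-coding genes, the 81026 CpGs inside CCGG averaged 8.59% (R1) and 9.54% (Tet/Tet) in ESCs and 12.3% and 8.96% in neurons, and the 376071 other CpGs 1.14% and 1.15% in ESCs and 3.91% and 1.34% in neurons. Sites of the 8 genes listed at 50% or more numbered 11 and 16 of 748 in the R1 and Tet/Tet ESCs, and 36 and 5 in the neurons. Over all sites outside islands the mean was 43.5% and 45.6% in the R1 and Tet/Tet ESCs and 84.4% and 15.99% in the neurons, and over the 47 such sites of the 8 genes it was 19.5% and 20.3% in ESCs and 55.1% and 7.69% in neurons. In the downstream flank of Olig2, an MspI fragment with 3 sites had 13.4% and 13.7% in ESCs and 27.9% and 7.37% in neurons, R1 first. Of the astrocyte marker promoters 2 of 4 were measured and 1 (Aldh1l1) was lower in Tet/Tet than in R1 neurons by at least 10 points, and of the oligodendrocyte marker promoters 2 of 4 were measured and 1 (Sox10) was lower in both the neuron and the ESC comparison.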
